A study of Mus musculus with 6 samples.

Results

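The transcripts described here are 10 genes of the interleukin 1 (IL-1) family in mouse tongue: the ligands Il1a, Il1b, Il18 and Il33, the soluble inhibitors Il1rn and Il18bp, and the receptors Il1r1, Il1r2, Il1rap and Il1rl1. They were taken by symbol from a table of 35275 genes, and each matched 1 row. RNA of whole tongues was sequenced in bulk, with 3 libraries from Aim2 KO mice and 3 from wild type (WT) mice. All 6 libraries came from mice that drank 100 µg/ml of 4NQO, a DNA-damaging carcinogen that produces squamous lesions of the oral epithelium, for 20 weeks, so no group lacks the carcinogen. The product of Aim2 detects DNA in the cytosol and nucleates an inflammasome. The labels give no strain, age or sex, do not name the exons removed in the knockout, and do not say whether each library is 1 mouse, so each p-value reflects library-to-library spread alone.

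IL-1 alpha (Il1a) and IL-1 beta (Il1b) bind the receptor Il1r1, which signals together with the accessory chain Il1rap, and the antagonist Il1rn and the decoy receptor Il1r2 hold this signal down. IL-18 is held by the binding protein Il18bp, and IL-33 is a nuclear alarmin of barrier and stromal cells whose receptor ST2 (Il1rl1) also pairs with Il1rap. The precursors of IL-1 beta and IL-18 are cut by caspase-1, the protease that inflammasomes activate, a step that RNA levels do not show.

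No member differed between the genotypes beyond the spread between libraries. Values are FPKM, reads scaled to gene length and library size. Differences are Aim2 KO minus WT of log2(FPKM + 1), a scale that compresses the changes of genes with low values. Of the 10 members 9 had a mean of at least 1 FPKM and were tested with limma among 12144 genes, and Il1rl1 lay below that filter. Past an adjusted p of 0.05 there were 0 members (limma; 0 also at an unadjusted p under 0.05, and 0 by voom on recovered reads), where 0.00823% of all tested genes passed, which is 1 gene. The groups overlapped for all 10 members, where 4.98% of the tested genes were higher and 1.48% lower in Aim2 KO without overlap. The median log2 difference of the 10 members was 0.04, and that of all tested genes was 0.02. Without Aim2 KO replicate 1 the 9 tested members again gave 0 past the threshold, with 6 positive and 3 negative differences and a median of 0.04 beside 0.06 for all tested genes. Two-sided exact permutation tests of 3 against 3 libraries cannot give a p below 0.1.

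The libraries held between 21959204 and 25369400 reads, recovered from the table. Aim2 was lower in each Aim2 KO library, with 3, 4 and 10 reads against 14, 25 and 30 (exact permutation p = 0.1). Markers of stratified epithelium summed to 26880 to 32880 FPKM in Aim2 KO and to 26980 to 32960 FPKM in WT, so defining transcripts of the labelled tissue were present. One library, Aim2 KO replicate 1, stood apart. Its 10 skeletal muscle markers summed to 8257 FPKM against 13930 to 16320 FPKM in the other 5 libraries. It was the lowest library for 10 of 10 muscle, 8 of 8 endothelial and 7 of 8 fibroblast markers. Among all tested genes 34.3% were lowest in this library. Member results are therefore also given without it.

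By mean FPKM over the 6 libraries the members ordered as Il1rn (46.7), Il33 (30.6), Il18 (22.9), Il1r2 (12.4), Il1a (6.09), Il1rap (3.02), Il1b (2.77), Il1r1 (1.58), Il18bp (1.30) and Il1rl1 (0.239). Il1rn lay above Il33, and Il33 above Il18, in 6 of 6 libraries, and Il18 lay above Il1r2 in 5 of 6. Il1rap and Il1b were not ordered, since Il1rap was above Il1b in 3 of 6 libraries, and Il1b was above Il1r1 in 4 of 6. The step from Il1r2 to Il1a and the step from Il18bp to Il1rl1 were the 2 between neighbours whose ranges did not overlap. These levels depend on the gene length used. With the union of all GENCODE M21 exons as the length, an alternative chosen after seeing the data, Il33 came first at 27.0 FPKM and Il1rn second at 20.9 FPKM. The same change put Il1b (1.97 FPKM) above Il1rap (1.20 FPKM).

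**Figure D1:**
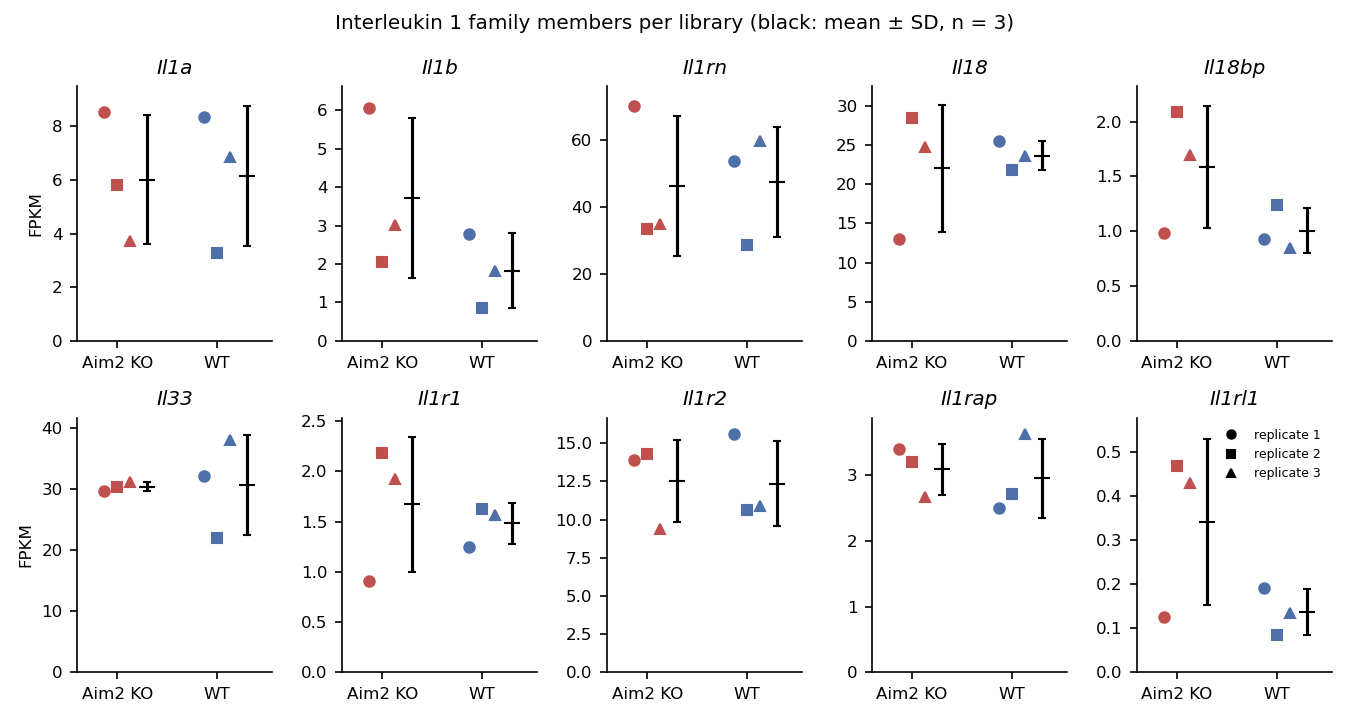
FPKM of each member (vertical axes, from 0) in the 3 Aim2 KO and 3 WT libraries, with marker shapes for the replicate numbers and black bars for the mean ± SD of 3 libraries. The groups overlap in every panel; Aim2 KO replicate 1 is the highest library for Il1a, Il1b and Il1rn and the lowest for Il18 and Il1r1.

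Il1a, Il1b and Il1rn lie on chromosome 2 and shared part of their pattern over the libraries, so the 250 bases before their transcription starts are shown (RefSeq, GRCm38.p6, gene strand). Il1a is chr2:129309973-129310222 and Il1b is chr2:129371140-129371389, both on the minus strand, and Il1rn is chr2:24336610-24336859 on the plus strand, the first of its 3 RefSeq starts. Capitals mark matches to the AP-1 motif TGANTCA or the TATA motif TATAAA.
Il1a: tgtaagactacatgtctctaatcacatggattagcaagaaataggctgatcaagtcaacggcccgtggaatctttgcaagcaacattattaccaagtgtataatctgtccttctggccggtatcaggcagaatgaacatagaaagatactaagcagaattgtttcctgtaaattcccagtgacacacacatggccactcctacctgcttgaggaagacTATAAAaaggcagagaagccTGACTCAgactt
Il1b: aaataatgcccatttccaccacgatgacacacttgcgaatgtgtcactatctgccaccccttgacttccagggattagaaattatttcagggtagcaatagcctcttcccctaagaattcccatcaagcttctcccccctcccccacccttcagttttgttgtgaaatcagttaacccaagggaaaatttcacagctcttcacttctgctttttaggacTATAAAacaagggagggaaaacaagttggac
Il1rn: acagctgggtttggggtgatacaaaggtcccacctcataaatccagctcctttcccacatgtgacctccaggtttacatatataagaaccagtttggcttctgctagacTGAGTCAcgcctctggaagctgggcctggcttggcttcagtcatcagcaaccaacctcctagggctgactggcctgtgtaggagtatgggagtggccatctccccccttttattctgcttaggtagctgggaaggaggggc

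The TATA match of Il1a begins 32 bases before the start and that of Il1b 31 bases before it. Il1rn has no TATA match in this window and its AP-1 match begins 141 bases before the start, while that of Il1a begins 12 bases before it. Both strands were searched in 32851 windows of the same length, of which 12.4% held a TATA match and 6.75% an AP-1 match. All 10 members had a RefSeq start, with 15 windows in all. A TATA match was in 5 of these 15 (Il1a, Il1b, Il18 and both starts of Il33) and an AP-1 match in 2 (Il1a and Il1rn). The NF-kB consensus was found in 1 of the 15 (a second start of Il1r1; 3.90% of all windows), the interferon gamma motif TTCNNNGAA in 1 (Il1r2; 7.02%) and the interferon motif GAAANNGAAA in 0 (2.98%). These matches describe the letters of the windows only, and no match overlapped another in the 3 sequences shown.

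Among the ligands, Il1b showed the largest genotype difference. Il1b (ENSMUSG00000027398; chromosome 2, 129364570 to 129371139) encodes IL-1 beta, made mainly by activated myeloid cells. Its level was 6.05, 2.07 and 3.02 FPKM in Aim2 KO replicates 1 to 3 and 2.79, 0.851 and 1.83 FPKM in WT replicates 1 to 3. Aim2 KO replicate 1 was the highest and WT replicate 2 the lowest, and WT replicate 1 lay above Aim2 KO replicate 2, so the groups overlapped. The means were 3.71 ± 2.08 and 1.82 ± 0.970 FPKM (SD, n = 3 each). The log2 difference was 0.71 (SE 0.35, 95% interval -0.11 to 1.53; limma adjusted p = 0.9998; exact permutation p = 0.2). It was 0.37 without Aim2 KO replicate 1 (limma adjusted p = 0.877) and 0.44 without WT replicate 2 (limma adjusted p = 1), and over all alternatives run the adjusted p lay between 0.433 and 1. The counts behind it were 345 reads against 184, a pooled rate ratio of 2.00 (exact 95% binomial limits 1.67 and 2.41, for counting error alone), and 1.38 without Aim2 KO replicate 1.

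Il1a had nearly equal means in the genotypes. It encodes IL-1 alpha, which keratinocytes store as an active precursor and release on damage. Its values were 8.52, 5.82 and 3.71 FPKM in Aim2 KO and 8.37, 3.28 and 6.85 FPKM in WT. Each genotype spanned more than the distance between the means, 6.02 ± 2.41 and 6.16 ± 2.61 FPKM. The log2 difference was -0.01 (95% interval -0.80 to 0.78), an interval that leaves changes of either sign possible. Il1b and Il1a lie close together on the minus strand of chromosome 2, and both were lowest in WT replicate 2.

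Il1rn, the IL-1 receptor antagonist and an abundant epithelial transcript, was the highest member. It stood at 70.1, 33.3 and 34.7 FPKM in Aim2 KO and at 53.7, 28.7 and 59.6 FPKM in WT. Aim2 KO replicate 1, WT replicate 1 and WT replicate 3 were high, and the other 3 libraries, 2 of them Aim2 KO, were low. The means were 46.1 ± 20.8 and 47.3 ± 16.4 FPKM, with a log2 difference of -0.06 (95% interval -0.87 to 0.76; limma adjusted p = 0.9998) and of -0.40 without Aim2 KO replicate 1. Of the 9 stratified epithelium markers 6 were also highest in Aim2 KO replicate 1, and their part in the Il1rn and Il1a levels was not tested.

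**Figure D2:**
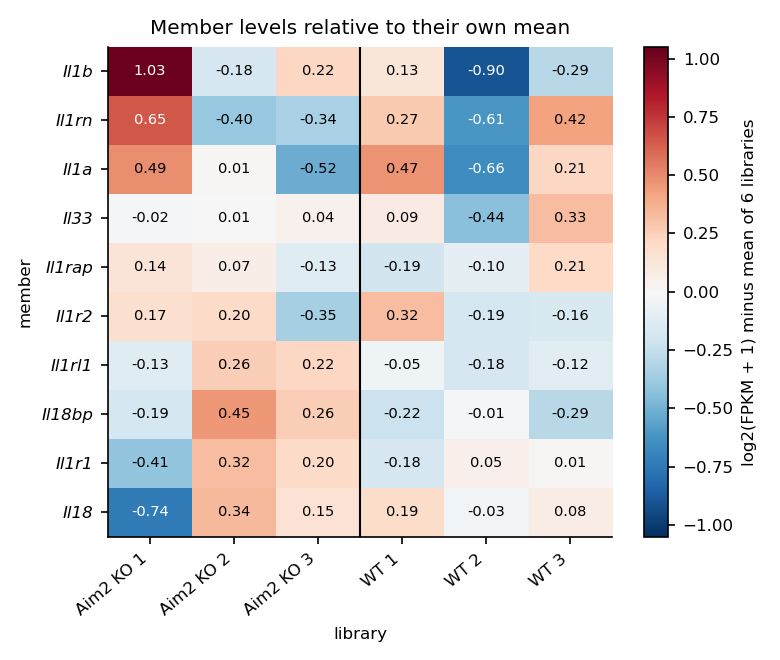
Heat map of log2(FPKM + 1) of each member (rows) minus its mean over the 6 libraries, by library (columns), red above and blue below the mean. In Aim2 KO replicate 1 Il1b is 1.03 and Il1rn 0.65 above its own mean, while Il18 is 0.74 and Il1r1 0.41 below.

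Il18, a ligand that epithelia make without induction, was low in the library where Il1a and Il1b were highest. Il18 had 12.96, 28.4 and 24.8 FPKM in Aim2 KO and 25.5, 21.8 and 23.6 FPKM in WT. The WT libraries lay close together, and of the Aim2 KO libraries replicate 1 lay below all others and replicate 2 above them. The log2 difference was -0.16 (95% interval -0.77 to 0.44; limma adjusted p = 0.9998) and turned to 0.16 without Aim2 KO replicate 1. The table counts Il18 over 702 bases, where the union of its GENCODE M21 exons is 1031 bases.

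Il18bp, the soluble protein that neutralises IL-18 and a known target of interferon gamma, had 0.982, 2.09 and 1.69 FPKM in Aim2 KO and 0.930, 1.24 and 0.845 FPKM in WT. Aim2 KO replicates 2 and 3 lay above every WT library, and Aim2 KO replicate 1 fell among them. The means were 1.59 ± 0.559 and 1.00 ± 0.206 FPKM, with a log2 difference of 0.35 (SE 0.19, 95% interval -0.10 to 0.80; limma adjusted p = 0.9998; exact permutation p = 0.2). The difference was 0.53 without Aim2 KO replicate 1 (limma adjusted p = 0.408) and 0.21 without Aim2 KO replicate 2 (limma adjusted p = 0.956), with adjusted p between 0.242 and 1 over all alternatives run. It rested on 156 reads against 104, a pooled rate ratio of 1.60 (exact 95% binomial limits 1.24 and 2.07, for counting error alone, while the libraries overlapped). Il18bp shares 80 exon bases with Numa1 on the opposite strand, and the sources used here do not say whether reads were counted by strand.

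Il33 was even across the Aim2 KO libraries and spread in WT. It had 29.8, 30.3 and 31.2 FPKM in Aim2 KO and 32.1, 22.0 and 38.1 FPKM in WT, so that all 3 Aim2 KO values lay inside the WT range. The log2 difference was 0.02 (95% interval -0.41 to 0.45). With 5378 and 5827 reads behind it, counting error was small beside this spread.

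The receptors differed between the genotypes by 0.08 or less on the log2 scale among the 3 that were tested. Il1r1, the signalling receptor, had 0.910, 2.18 and 1.92 FPKM in Aim2 KO and 1.25, 1.63 and 1.57 FPKM in WT. One Aim2 KO library, replicate 1, was below and the other two were above all WT libraries. Its log2 difference was 0.08 (95% interval -0.41 to 0.56), and 0.30 without Aim2 KO replicate 1 (limma adjusted p = 0.790). Il1r1 was low in the library where fibroblast and endothelial markers were low too, with sums of 132 and 20.7 FPKM there against at least 175 and 30.1 FPKM in the others. The part of these cells in the level was not tested, and in bulk RNA fewer cells of a type and less RNA per cell cannot be told apart.

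Il1r2, the decoy receptor that binds IL-1 without signalling, had 13.9, 14.3 and 9.40 FPKM in Aim2 KO and 15.6, 10.6 and 10.9 FPKM in WT. The means, 12.5 ± 2.71 and 12.4 ± 2.79 FPKM, were closer than any spread (log2 difference 0.02, 95% interval -0.44 to 0.47). Il1rap, the accessory chain shared by the IL-1 and IL-33 receptors, varied least of all members, by 1.45 times from the lowest to the highest library. It had 3.40, 3.204 and 2.66 FPKM in Aim2 KO and 2.502, 2.72 and 3.63 FPKM in WT (log2 difference 0.06, 95% interval -0.29 to 0.40). Exons of Il1rap share 552 bases with the antisense gene Gm20319.

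Il1rl1, the IL-33 receptor ST2 found on mast cells, regulatory T cells and type 2 lymphoid cells, was the scarcest member. Its level was 0.126, 0.468 and 0.429 FPKM in Aim2 KO and 0.192, 0.0855 and 0.134 FPKM in WT, from 15, 62 and 50 reads against 25, 11 and 18. Aim2 KO replicates 2 and 3 were above all WT libraries and Aim2 KO replicate 1 was inside the WT range. The means were 0.341 ± 0.188 and 0.137 ± 0.0533 FPKM (log2 difference 0.23; exact permutation p = 0.3; limma without a filter adjusted p = 0.9997). The pooled read rate was 2.51 times that of WT (exact 95% binomial limits 1.81 and 3.52, for counting error alone, while the libraries overlapped), and 3.28 times without Aim2 KO replicate 1. Summed mast cell markers were, like Il1rl1, highest in Aim2 KO replicates 2 and 3, but within WT the orders were opposite. The 10 markers summed to 7.36, 24.1 and 20.7 FPKM in Aim2 KO and to 8.95, 14.2 and 10.7 FPKM in WT. Of the 5 tested mast cell markers 4 had positive log2 differences and 1, Kit, a negative one of -0.11 (median 0.43), 0 passed, and none of the 10 was at 0 in all libraries. Cpa3, one of the positive ones, reached the filter only through Aim2 KO, with a WT mean of 0.899 FPKM. The part of the mast cell markers in the Il1rl1 level was not tested. The table sums all transcripts of the gene, so soluble and membrane-bound forms of ST2 are not separated. Il1r1, Il1r2 and Il1rl1 lie together on chromosome 1, 133 Mb from Aim2.

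**Figure D3:**
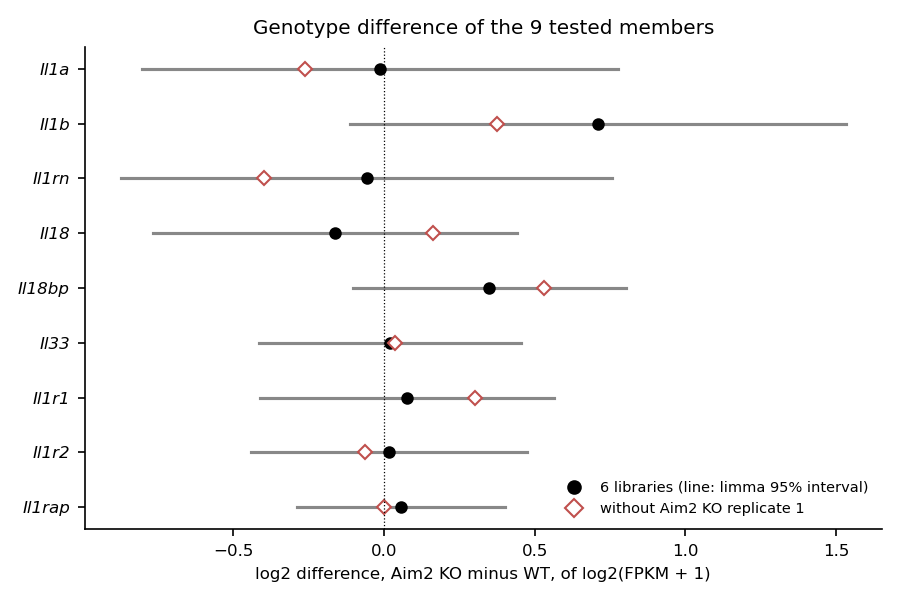
Log2 difference (Aim2 KO minus WT, horizontal axis) of the 9 tested members with all 6 libraries (black points, lines for limma 95% intervals) and without Aim2 KO replicate 1 (open diamonds). Every interval includes 0, and leaving out that library moves Il1b from 0.71 to 0.37, Il1rn from -0.06 to -0.40 and Il18 from -0.16 to 0.16.

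A ratio of 2 members within a library does not depend on that library's total, and it compares each ligand or receptor with its inhibitor. Of 4 such ratios, 2 did not overlap between the genotypes. How often ratios of other gene pairs separate in this way was not counted, so the count of 2 is not a result about the family. Il1rn relative to Il1b was 11.6, 16.2 and 11.5 in Aim2 KO and 19.3, 33.7 and 32.6 in WT. Antagonist transcripts thus exceeded those of the ligand in every library, and the excess was smaller in all 3 Aim2 KO libraries. The geometric means were 12.9 and 27.7, and the log2 difference was -1.10 (exact permutation p = 0.1, the smallest possible; adjusted over the 4 ratios 0.2). It ran from -1.36 to -0.96 when each library was left out, and was -1.02 without Aim2 KO replicate 1. This ratio carries the higher Il1b already described and is no separate evidence of it.

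Il18bp relative to Il18 was 0.0758, 0.0734 and 0.0683 in Aim2 KO and 0.0365, 0.0566 and 0.0358 in WT. The library with low Il18bp and low Il18, Aim2 KO replicate 1, was thus level with the other two on this ratio. The log2 difference was 0.79 (exact permutation p = 0.1; adjusted over the 4 ratios 0.2) and 0.67 to 1.00 when each library was left out. It carries the Il18bp values above in the same way.

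The remaining ratios overlapped. Il1rn relative to Il1a lay between 5.73 and 9.35 in all 6 libraries, with a log2 difference of -0.05 (exact permutation p = 0.8). Il1r2 relative to Il1r1 was 15.3, 6.55 and 4.89 in Aim2 KO and 12.5, 6.52 and 6.94 in WT, with a log2 difference of -0.07 (exact permutation p = 0.9). Decoy transcripts exceeded those of the signalling receptor in each library, and replicate 1 of each genotype had the largest excess.

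**Figure D4:**
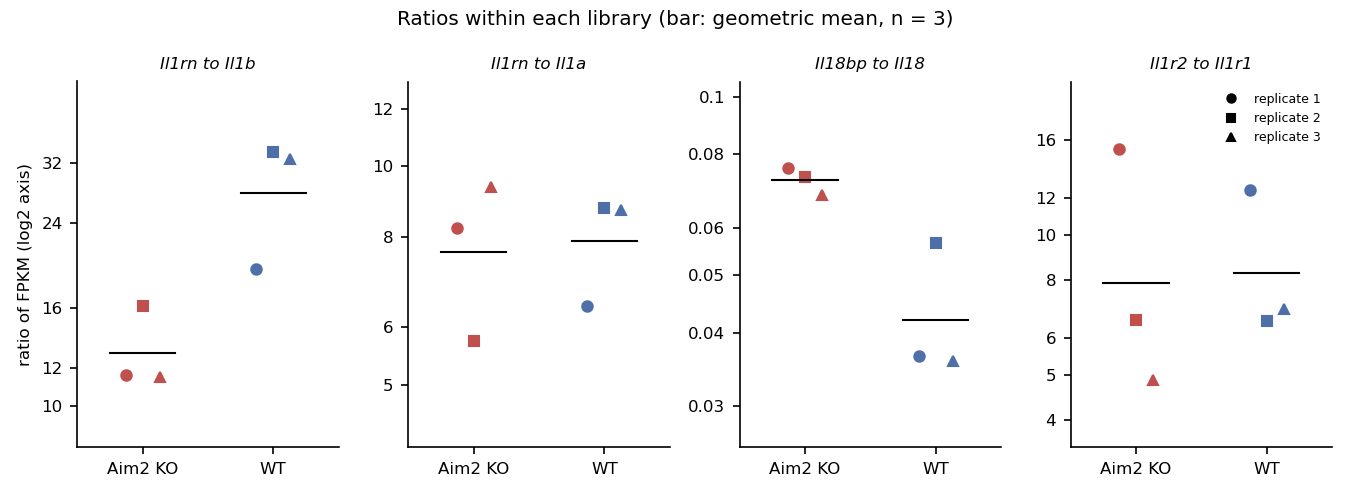
Ratio of FPKM values within each library (vertical axes, log2 scale) for 4 pairs of members, with bars for the geometric mean of 3 libraries. The Aim2 KO libraries lie below the WT libraries for Il1rn to Il1b (11.5 to 16.2 against 19.3 to 33.7) and above them for Il18bp to Il18, while the other 2 ratios overlap.

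The rest of the family was examined from a list of 11 genes in the table, of which 7 were tested and 0 passed (3 positive and 4 negative log2 differences, median -0.04). The IL-36 ligands, cytokines of stratified epithelium, were more abundant than most members. Il1f6 (IL-36 alpha) had 250, 156 and 121 FPKM in Aim2 KO and 295, 156 and 222 FPKM in WT (log2 difference -0.37, limma adjusted p = 0.9998). Il1f8 (IL-36 beta), Sigirr, a receptor that dampens IL-1 signalling, and Il1f10 had differences of -0.17, 0.23 and -0.13. Il18r1, the ligand-binding chain of the IL-18 receptor, lay below the filter. It was at 0.502, 0.587 and 0.646 FPKM in Aim2 KO and at 0.245, 0.327 and 0.237 FPKM in WT, without overlap (167 reads against 83; exact permutation p = 0.1, chosen after its values were seen). Its partner chain Il18rap overlapped, at 0.155 ± 0.0467 against 0.122 ± 0.0577 FPKM. How often genes below the filter do not overlap was not counted, so the separation of Il18r1 has no background share beside it. T cells carry Il18r1, and the 9 T cell markers summed to 12.2 to 29.3 FPKM in Aim2 KO against 12.6 to 13.6 FPKM in WT. That sum is mostly Trbc2, which overlapped (log2 difference -0.10). Cd3d, Cd3g and Cd8a overlapped too, with log2 differences of 0.51, 0.32 and 0.22. Cd2, Trac, Cd3e, Cd4 and Lck were each higher in Aim2 KO without overlap, with log2 differences of 1.18, 1.17, 0.68, 0.50 and 0.44. Among all tested genes 4.98% were higher in Aim2 KO without overlap. Cd3e, Cd4 and Lck lay below the filter, where that share was not counted. Of the 4 tested T cell markers 3 had positive differences (median 0.74), 0 passed, none was at 0 in all libraries, and their part in the Il18r1 level was not tested. Cd2 and Trac reached the filter only through Aim2 KO, with WT means of 0.410 and 0.492 FPKM. The count and the median of the tested T cell markers therefore lean on that filter.

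Below the receptors, all 18 listed genes of the signalling chain were tested and 0 passed, with 14 positive and 4 negative differences (median 0.05). The receptor kinase Irak1 had 18.6 ± 2.69 against 16.8 ± 1.18 FPKM, and Irak3, the kinase-like inhibitor, had 2.58 ± 0.538 against 2.21 ± 0.334 FPKM. The transcription factor gene Nfkb1 (log2 difference 0.12) and the adaptor gene Tab3 (0.11) completed the 4 with the smallest p. Differences across this list ran from -0.09 to 0.15.

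Of the genes that process or release the ligands, 10 of 19 were tested and 0 passed (8 positive, 2 negative, median 0.07). Casp1, which cuts the precursors of IL-1 beta and IL-18, had 40.1, 40.8 and 37.8 FPKM in Aim2 KO and 36.6, 29.0 and 29.0 FPKM in WT. Gsdmd, the pore through which they leave the cell, had 1.95, 2.57 and 2.90 against 1.54, 1.88 and 1.35 FPKM. The groups did not overlap for these 2, with log2 differences of 0.32 and 0.42 (limma adjusted p = 0.9998 for each). Of all tested genes 4.98% were higher in Aim2 KO without overlap. The mast cell protease Cma1 (0.46) and Dfna5, another pore gene (-0.13), overlapped between the groups. The sensors Nlrp3 and Nlrc4 had means under 0.2 FPKM in both genotypes.

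Most genes known to be induced by IL-1 receptor signalling were highest in the library with the most Il1b. Of 21 listed, 17 were tested and 0 passed, with 14 positive and 3 negative differences (median 0.19). That library, Aim2 KO replicate 1, was the highest for 14 of these 17 (82.4%), and for 21.9% of all tested genes. Ccl20 and Cxcl3, both among the 14, reached the filter only through that library, so the count leans on the filter there. Without it, 15 genes reached the filter, 8 were positive and 7 negative, and the median was 0.04 beside 0.06 for all tested genes. Cxcl1, a neutrophil attractant, had 31.8 FPKM in that library and 1.90 to 7.73 FPKM in the other 5. Zc3h12a, an RNase that limits this response, had 71.3 FPKM there and 26.3 to 42.3 FPKM elsewhere. The same library was the highest for 6 of the 9 stratified epithelium markers (66.7%). Neither the part of Il1b nor that of cell content in these levels was tested.

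Icam1, an adhesion molecule of activated endothelium and epithelium, was higher in each Aim2 KO library than in any WT library. It had 11.97, 5.55 and 8.62 FPKM in Aim2 KO and 4.07, 3.96 and 4.10 FPKM in WT, without overlap (log2 difference 0.89, SE 0.23, limma adjusted p = 0.9998). The chemokine gene Ccl2 did not overlap either, at 16.3, 2.67 and 5.19 against 2.64, 1.92 and 1.33 FPKM. Ptgs2, the inducible cyclooxygenase, had 12.5, 13.3 and 4.33 against 5.49, 3.36 and 4.38 FPKM, and the inhibitor gene Tnfaip3 had 6.77, 1.14 and 2.28 against 1.45, 0.758 and 1.36 FPKM. None of these passed the threshold, and 4.98% of all tested genes were higher in Aim2 KO without overlap.

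Of the 10 neutrophil markers 3 were tested, with 3 negative differences (median -0.54) and 0 past the threshold. Without Aim2 KO replicate 1 their median was -1.49, again with 0 past the threshold (smallest limma adjusted p = 0.05345). That library was the highest for 2 of the 3, so leaving it out lowers these differences by construction. S100a8 and S100a9, which epithelium also expresses, had 3040 and 3745 FPKM in Aim2 KO replicate 1 and at most 1575 and 1922 FPKM in the other 5. Of the other markers in that library Ly6g, Camp, Ngp and Mmp8 were at 0, while Cxcr2 (0.714 FPKM) was at its highest and Csf3r (0.319 FPKM) and Retnlg (0.511 FPKM) were second highest. Zeros occurred in other libraries too, Ngp being at 0 in 5 of 6. The summed list ran from 813 to 6831 FPKM in Aim2 KO and from 2347 to 3530 FPKM in WT. That sum is mostly S100a8 and S100a9, so it does not measure neutrophils. Ltf, the remaining tested marker, had 43.4 FPKM in Aim2 KO replicate 1 and 43.5 FPKM in WT replicate 2. Macrophage and monocyte markers summed to 73.1 FPKM in Aim2 KO replicate 1, the lowest sum of all. Their sums were 154 and 173 FPKM in the other 2 Aim2 KO libraries and 78.2 to 93.7 FPKM in WT. All 9 tested macrophage markers had positive differences (median 0.42), 0 passed, and none of the 11 in the table was at 0 in all libraries. Ccr2, one of the 9, reached the filter only through Aim2 KO, with a WT mean of 0.703 FPKM. Without Aim2 KO replicate 1 the median of the 9 markers was 0.66 and 2 passed, the complement genes C1qa and C1qc (smallest limma adjusted p = 0.0366). In that setting 14 of all 12209 tested genes passed, and the median of all tested genes was 0.06. The library left out had the lowest macrophage sum, so leaving it out raises these differences by construction. Il18bp was highest in the 2 libraries with the largest macrophage sums, and the part of these cells in its level was not tested.

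**Figure D5:**
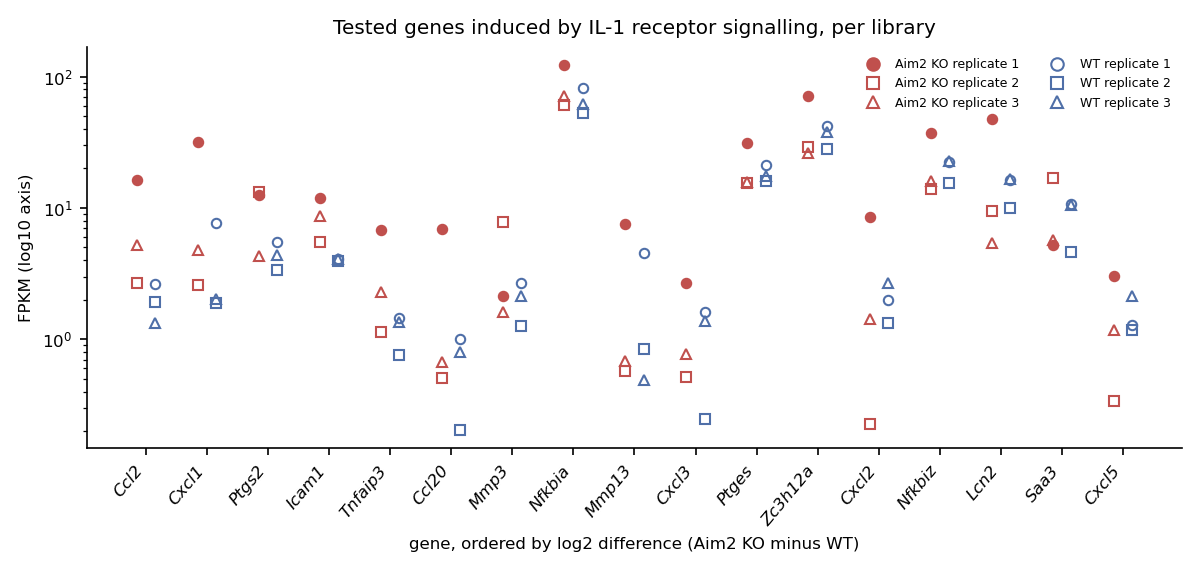
FPKM (log10 axis) of the 17 tested genes induced by IL-1 receptor signalling in each library, ordered by log2 difference, Aim2 KO in red and WT in blue. Aim2 KO replicate 1 (filled circles) is the highest library for 14 of the 17, while Ptgs2, Mmp3 and Saa3 are highest in Aim2 KO replicate 2. Ccl20 and Cxcl3 reached the filter only through Aim2 KO replicate 1.

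Targets of IL-18 and IL-33 signalling were scarce. Of 13 listed, 2 were tested, Areg (log2 difference 0.57) and Il4 (0.14), and 0 passed. Il9 and Csf2 were listed at 0 in all libraries. Ifng, the cytokine that IL-18 induces in lymphocytes, had 0.184, 0.232 and 0.566 FPKM in Aim2 KO and 0.135, 0.0683 and 0.0653 FPKM in WT, from 27 and 8 reads. Its groups did not overlap, and the same held for Il2ra, the high-affinity interleukin 2 receptor chain, at 0.892 ± 0.108 against 0.343 ± 0.0579 FPKM. Il5, a type 2 cytokine, did not overlap in the other direction, at 0 in all 3 Aim2 KO libraries and at 0.0265, 0.0536 and 0.0257 FPKM in WT, from 4 reads in all. These 3 genes lay below the filter and were singled out after their values were seen. How often genes below the filter separate in this way was not counted, so their separation is not a result about the list.

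The genes most like each member in pattern were taken as those with the highest Pearson correlation of log2(FPKM + 1) over the 6 libraries among all tested genes, which is a description of these libraries with no test. For Il1a these were Cers3 (0.98), Ccdc120 (0.98) and Alox12b (0.98). For Il1b they were Cct5 (0.99), Arl6ip1 (0.99) and Tnfrsf12a (0.99), and for Il1rn Anxa1 (0.998), Scnn1g (0.995) and Ywhab (0.994). Il18 was most like Dnajc27 (0.99), Il18bp most like Rsbn1l (0.99), Il33 most like Slc25a44 (0.99) and Il1r1 most like Setd3 (0.996). Il1r2 was most like Ghdc (0.98) and Il1rap most like Copb2 (0.99). The points share the libraries and their totals, and none of these genes is a member.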

How the data were processed

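RNA of tongues was prepared with a column kit and libraries were built by a sequencing company, per the labels' protocols. The FPKM values deposited by the authors cover 35275 genes with 1 column per library; for aligner, counter and annotation: not given in the sources used here. Read counts were recovered from the values and the deposited gene lengths; 100% of the values above 0 came out whole (tolerance 0.01). Of 34490 gene IDs found in GENCODE M21, 72.3% have identical coordinates there, so coordinates are read as GRCm38.

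Groups follow the genotype labels. The test was limma 3.58.1 (R 4.3.3) on log2(FPKM + 1), using an intensity trend, over genes whose mean reached 1 FPKM, two-sided, Benjamini-Hochberg over all 12144 genes, threshold 0.05, genotype as the only term; it was tested on simulated data. Single values had exact permutation tests. The members and lists were chosen with earlier results of these data known. All 10 members are described, up to 4 genes of each other list are named by smallest p, and other named genes were chosen after their values were seen. Alternatives were pseudocounts of 0.1 and 0.5, no filter or one at 0.1 FPKM, median-of-ratios, TPM and quantile scaling, limma without a trend, robust or with array quality weights, the replicate number as a block, the skeletal muscle level as a covariate, voom on recovered reads, and leaving out each library. Each genotype's library names have their own stem, and whatever that stands for cannot be told apart from the genotype.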

Additional observations from a re-analysis of the deposited data

How the results depend on the processing

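The count of members past the threshold stayed at 0 under every alternative run. The count over all tested genes was 1, and 0 without a filter, with a filter at 0.1 FPKM, after rescaling to TPM and with the replicate number as a block, 68 with array quality weights, 22 with the skeletal muscle covariate and 0 to 14 when each library was left out, with 14 without Aim2 KO replicate 1. Il1b, Il18bp and Il1rl1 kept a positive log2 difference under all alternatives run for them, from 0.37 to 1.01, from 0.21 to 0.62 and from 0.16 to 0.81. Il1rl1, below the filter, had 12 alternatives against 19 for Il1b and for Il18bp. It had no value with quantile normalization, without a trend, with robust moderation, array quality weights, the block, the muscle covariate or voom. The other 7 members changed sign under at least 1 alternative. Leaving out each library gave -0.348 to 0.24 for Il1a, -0.40 to 0.14 for Il1rn, -0.37 to 0.16 for Il18, -0.20 to 0.19 for Il33, -0.0671 to 0.30 for Il1r1, -0.0824 to 0.19 for Il1r2 and -0.0254 to 0.18 for Il1rap. Array quality weights gave 0.0383 for Il18, -0.29 for Il1r2 and -0.0213 for Il1rap. The muscle covariate gave 0.0241 for Il18, -0.0027 for Il33 and -0.0341 for Il1r2. Median-of-ratios scaling gave -0.0147 for Il33 and -0.0166 for Il1r2, and quantile normalization -0.0069 for Il1r2. The Il1rn to Il1a ratio ran from -0.20 to 0.16 and the Il1r2 to Il1r1 ratio from -0.55 to 0.27 when each library was left out. The cause of these changes was not tested.

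The replicate numbers did not pair all the libraries: deviations from the group means correlated by 0.35, 0.46 and 0.03 for numbers 1, 2 and 3. Replicates 1 and 2 correlated best with their own number across the genotypes, and Aim2 KO replicate 3 did not. With the block the differences of the tested members were the same and 0 passed. Depth limits Il1rl1 (11 to 62 reads per library), Il18bp (30 to 73 reads) and Il1b (28 to 185 reads).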
